A study of Rattus norvegicus with 12 samples.

Results

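Oxygenated cold perfusion was set against warm ischemia alone in 6 of the 12 rat livers of the series, 3 HOPE 1 h livers and 3 WI 30 min livers, chosen by their treatment labels and described across all genes. All 6 livers came from male Sprague Dawley rats and had 30 min of warm ischemia in situ after cardiac arrest, which models donation after circulatory death (DCD). The HOPE 1 h livers (hypothermic oxygenated perfusion) then had 3 h of static cold storage and 1 h of machine perfusion with oxygenated cold solution through the portal vein, whereas the WI 30 min livers had no storage or perfusion. The other 6 livers are 3 of the HMP 1 h group (3 h of cold storage and 1 h of cold perfusion without active oxygenation) and 3 of the SCS 4 h group (4 h of static cold storage). The HOPE 1 h and WI 30 min livers thus differ in cold storage, in perfusion, in oxygen and in the time from arrest to sampling, and this comparison cannot tell these apart. RNA was taken from liver tissue before any warm reperfusion, with 1 library per liver. The paper's liver samples came from a single lobe, the middle one of the left liver.

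In a DCD liver the stop of blood flow leaves cells without oxygen while still warm, so that ATP falls and succinate builds up in mitochondria. Cold slows but does not stop transcription and RNA decay, and oxygenated perfusion lets the respiratory chain run again at low temperature before the graft meets warm blood. Livers also carry a resident interferon system: nucleic acids in the cytosol or in endosomes induce type I interferon, which acts through the receptor IFNAR and the transcription factor ISGF3 on a set of interferon-stimulated genes in hepatocytes, endothelial cells and Kupffer cells alike.

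Between 17582521 and 18343167 reads were counted per HOPE 1 h liver, against 15262961 to 17083357 per WI 30 min liver. Of 33744 genes listed, 20213 had a count in at least 1 liver, and the 13687 that passed a filter on low counts were tested with edgeR's quasi-likelihood test in 1 model of all 12 livers. No gene had a Benjamini-Hochberg adjusted p under 0.05 (0 of 13687, or 0%), and the lowest adjusted p was 0.0859. At an unadjusted p under 0.05, 603 genes (4.41%) were higher and 570 genes (4.16%) were lower in HOPE 1 h. DESeq2 on the same genes called 97 at an adjusted p under 0.05, of which 54 (0.395%) were higher and 43 (0.314%) lower in HOPE 1 h, and all 97 had an unadjusted edgeR p under 0.05. All 3 HOPE 1 h livers lay above all 3 WI 30 min livers for 1201 genes (8.77%) and below them for 1015 genes (7.42%), so 54.2% of the genes that did not overlap were higher. With libraries scaled by total counts alone that share was 33%, from 792 genes higher and 1609 lower. The median log2 fold change of all tested genes was 0.02. Of all tested genes 7290 (53.3%) had a positive log2 fold change. These percentages are the background for the counts below of HOPE 1 h against WI 30 min in the fit of all 12 livers. Fits of fewer livers have backgrounds of their own, which are mostly not given here. The labels number the livers within a group but do not say how each was paired with an animal, so p-values measure the spread between these samples.

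Tissue with all its cell types was sequenced. Of the hepatocyte list, read as a check of the tissue, 7 of 12 genes were higher, 5 lower and 0 had an unadjusted p under 0.05. Its summed level was 210200, 196100 and 163000 CPM (counts per 1000000 after TMM scaling) in HOPE 1 h livers, against 200900, 186800 and 201600 CPM in WI 30 min livers. In such bulk RNA, fewer cells of a type and less RNA per cell cannot be told apart. HOPE 1 h liver 3 stood apart by its non-parenchymal genes, as given below, and WI 30 min liver 3 by its clock and fatty acid oxidation genes, and values without them are given where they move a result.

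Interferon-stimulated genes led the differences. Of 48 genes of this list that were tested, 43 had a positive and 5 a negative log2 fold change, with a median of 0.90. None was called by edgeR, 27 were higher and 1 lower at an unadjusted p under 0.05, 23 were higher with livers that did not overlap, and DESeq2 called 17, all of them higher. Oas1a, which makes the 2′-5′ oligoadenylates that activate RNase L on viral RNA, had the lowest p of all genes. It had 25.6, 6.28 and 20.1 CPM in HOPE 1 h livers, against 1.805, 0.7498 and 2.36 CPM in WI 30 min livers. Every HOPE 1 h liver was above every WI 30 min liver, although HOPE 1 h liver 2 was well below the others (log2 fold change 3.40, SE 0.50, edgeR adjusted p = 0.0859, DESeq2 adjusted p = 3.56e-08).

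Mx2, a dynamin-like GTPase that blocks viral ribonucleoproteins, had 58.7, 19.4 and 62.7 CPM in HOPE 1 h livers, against 7.39, 3.75 and 10.3 CPM in WI 30 min livers. Its relative Mx1 had 14.3, 7.53 and 22.9 CPM in HOPE 1 h and 2.14, 1.69 and 4.05 CPM in WI 30 min. In both genes HOPE 1 h liver 2 was again the lowest of its group without reaching the WI 30 min range (Mx2 log2 fold change 2.72, SE 0.48, Mx1 log2 fold change 2.50, SE 0.48). Irf7, the factor that amplifies type I interferon transcription, had 37.1, 27.6 and 65.4 CPM in HOPE 1 h livers, against 6.83, 5.81 and 12.7 CPM in WI 30 min livers. Its groups stood well apart, with HOPE 1 h liver 3 highest and WI 30 min liver 3 the highest of the WI 30 min livers (log2 fold change 2.36, SE 0.43, DESeq2 adjusted p = 3.82e-05). Usp18, the protease that removes ISG15 and damps the receptor IFNAR, had 31.2, 11.4 and 26.1 CPM in HOPE 1 h and 2.2, 2.56 and 7.67 CPM in WI 30 min. Ifit3, which binds viral RNA in a complex with other IFIT proteins, had 8.89, 7.05 and 24.03 CPM in HOPE 1 h and 3.78, 1.5 and 2.901 CPM in WI 30 min. Neither overlapped (Usp18 log2 fold change 2.47, SE 0.52, Ifit3 log2 fold change 2.28, SE 0.46).

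A factor and the sensors at the head of the response had smaller fold changes. Irf9, the DNA-binding subunit of the interferon factor ISGF3, had 26.4, 20.1 and 34.1 CPM in HOPE 1 h and 14.7, 12 and 15.8 CPM in WI 30 min, with a log2 fold change of 0.92 (SE 0.21) and a DESeq2 adjusted p of 0.0272. Of the cytosolic RNA sensors, Ddx58, which encodes RIG-I, had 24.9, 20.9 and 22.7 CPM in HOPE 1 h and 18.2, 14.8 and 21.4 CPM in WI 30 min. Ifih1, which encodes MDA5, had 31.2, 25.4 and 19.7 CPM in HOPE 1 h and 21.9, 19.3 and 28.8 CPM in WI 30 min. Both overlapped between the groups, and Ifih1 was at -0.051 without HOPE 1 h liver 1. Isg15, the ubiquitin-like modifier, had 7.35, 3.44 and 16.6 CPM in HOPE 1 h and 2.54, 2.56 and 3.63 CPM in WI 30 min, with HOPE 1 h liver 2 inside the WI 30 min range. Rsad2, which encodes the antiviral enzyme viperin, had 8.66, 3.32 and 13.1 CPM in HOPE 1 h and 11.3, 6.06 and 6.89 CPM in WI 30 min and overlapped throughout (log2 fold change 0.05, SE 0.41), and its sign depended on the livers kept, at -0.43 without HOPE 1 h liver 3. The single member lower at an unadjusted p under 0.05 was Ifi35, with 22.5, 23.5 and 26.02 CPM in HOPE 1 h and 29.4, 25.99 and 31.6 CPM in WI 30 min.

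**Figure D1:**
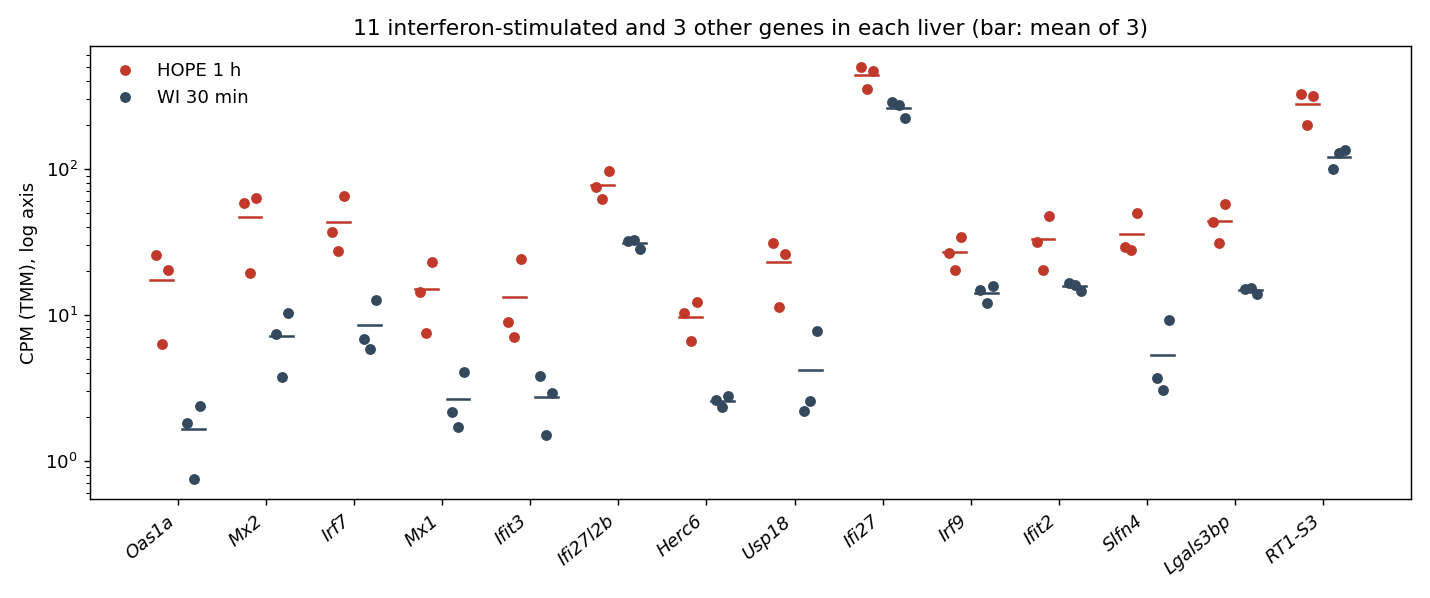
CPM after TMM scaling on a log axis for 14 genes, 11 of the interferon-stimulated list and 3 leading genes outside it (Slfn4, Lgals3bp and RT1-S3), with 1 point per liver, HOPE 1 h left of WI 30 min, and a bar at the mean of 3 livers. Only genes whose livers did not overlap are shown, so the gap between the groups follows from that choice. Of the 48 tested genes of the list, 23 were higher without overlap. For Oas1a and Mx2 HOPE 1 h liver 2 (6.28 and 19.4 CPM) is the lowest of its group.

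As a mean over the 48 genes on the centred log2 CPM scale, HOPE 1 h livers scored 0.511, 0.0845 and 0.853 and WI 30 min livers -0.409, -0.813 and -0.227, so the groups did not overlap and HOPE 1 h liver 2 was nearest to the WI 30 min livers. With HOPE 1 h liver 3 left out, the list's median log2 fold change was 0.65 with 21 genes higher at an unadjusted p under 0.05, and without HOPE 1 h liver 2 it was 1.07 with 29. On leaving out HOPE 1 h liver 3 and WI 30 min liver 3 together, 25 genes were higher at that threshold, with a median of 0.67. The liver with the highest score, HOPE 1 h liver 3, also had the highest summed endothelial markers (2101 CPM). HOPE 1 h liver 1, with a score of 0.511, had 857 CPM of these markers, within the 836 to 890 CPM of the WI 30 min livers. The part of cell content in these differences was not tested.

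The stretches before the start sites of 4 of these genes are shown because they hold the core of the interferon-stimulated response element, the site bound by ISGF3 and IRF proteins. Ifi44l is shown for its sequence alone, and its levels are not given here. They are 150 bases each from RefSeq on GRCr8, 5′ to 3′ on the strand of the gene and ending at the base before the start site, at chr12:41330316-41330465 (plus strand) for Oas1a, chr1:205800024-205800173 (minus) for Irf7, chr1:241527176-241527325 (plus) for Ifit3 and chr2:243328573-243328722 (plus) for Ifi44l. Capitals mark each match to GAAANNGAA or its reverse complement, where overlapping matches run together.
Oas1a: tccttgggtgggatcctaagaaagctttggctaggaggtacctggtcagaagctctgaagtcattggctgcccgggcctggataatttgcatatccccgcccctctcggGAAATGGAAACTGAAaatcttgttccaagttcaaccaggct
Irf7: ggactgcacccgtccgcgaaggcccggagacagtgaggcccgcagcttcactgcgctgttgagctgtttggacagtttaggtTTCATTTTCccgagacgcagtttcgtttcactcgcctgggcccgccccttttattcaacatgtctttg
Ifit3: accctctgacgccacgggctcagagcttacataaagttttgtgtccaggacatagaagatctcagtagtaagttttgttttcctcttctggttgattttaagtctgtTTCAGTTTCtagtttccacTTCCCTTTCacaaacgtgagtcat
Ifi44l: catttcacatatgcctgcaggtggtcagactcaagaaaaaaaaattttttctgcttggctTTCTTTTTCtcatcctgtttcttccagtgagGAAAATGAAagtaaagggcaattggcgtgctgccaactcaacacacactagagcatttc
Oas1a holds 2 overlapping matches that begin 41 and 35 bases before its start site. Irf7 holds 1 match beginning 68 bases upstream, Ifit3 holds 2, at 43 and 24 bases, and Ifi44l holds 2, at 90 and 59 bases. Over windows of 300 bases (250 before to 50 after the start), searched on both strands, GAAANNGAA was found in 23 of the 35 list genes with a promoter in the RefSeq table (65.7%) and in 3251 of all 33469 promoters (9.71%). Mx1 has no match in its window, and Mx2 and Usp18 were not matched to the table. A match is a string of letters, and no binding was measured here.

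Slfn4, a member of the Schlafen family that is interferon-inducible in mouse myeloid cells, was among the 5 genes that shared the lowest adjusted p. It had 29.3, 27.9 and 49.8 CPM in HOPE 1 h livers, against 3.67, 3.06 and 9.25 CPM in WI 30 min livers (log2 fold change 2.74, SE 0.42, adjusted p = 0.0859), with no overlap. Lgals3bp, a secreted glycoprotein that binds galectin-3, had 43.02, 31.1 and 57.7 CPM in HOPE 1 h livers, against 14.9, 15.3 and 13.8 CPM in WI 30 min livers. Its WI 30 min livers were within a narrow range that all HOPE 1 h livers exceeded (log2 fold change 1.58, SE 0.24, adjusted p = 0.0859). RT1-CE10 and RT1-S3 are class I genes of RT1, the rat major histocompatibility complex on chromosome 20. RT1-CE10 had 3.36, 3.26 and 3.73 CPM in HOPE 1 h and 1.24, 0.812 and 1.09 CPM in WI 30 min (log2 fold change 1.71, SE 0.26, adjusted p = 0.0859). RT1-S3 had 324, 199.5 and 314 CPM in HOPE 1 h and 99.2, 128 and 134 CPM in WI 30 min (log2 fold change 1.21, SE 0.21, adjusted p = 0.139). Neither overlapped, but RT1 class I genes are near-identical copies, so reads may be split between them. The last of the 5 is LOC100912427, annotated as a processed pseudogene, with 16.2, 12.9 and 16.9 CPM in HOPE 1 h and 6.204, 7.12 and 3.99 CPM in WI 30 min (log2 fold change 1.41, SE 0.21), whose reads may come from its parent gene.

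The 20 tested genes of the immunoproteasome and antigen loading leaned the same way, with 19 positive and 1 negative log2 fold changes and a median of 0.55. Of them 6 were higher at an unadjusted p under 0.05 and 7 did not overlap. Psmb8, a catalytic subunit that replaces its constitutive counterpart after interferon, had 12.7, 19.3 and 24.1 CPM in HOPE 1 h and 8.06, 10.3 and 11.6 CPM in WI 30 min (log2 fold change 0.90, SE 0.24). The class I transactivator Nlrc5 had 6.78, 3.02 and 9.49 CPM in HOPE 1 h and 2.93, 2.81 and 4.47 CPM in WI 30 min, where HOPE 1 h liver 2 overlapped the WI 30 min livers. Much of this list rested on HOPE 1 h liver 3. Its score was 0.751, against -0.141 and 0.117 in the other HOPE 1 h livers and -0.147, -0.237 and -0.344 in WI 30 min livers, and without it the median was 0.22 with 2 genes higher at that threshold. When WI 30 min liver 1 or 2 was left out, there were 3, with medians of 0.65 and 0.55, and without WI 30 min liver 3 there were 4 (median 0.46). In a fit of only the 6 livers there were also 4 (median 0.53).

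**Figure D2:**
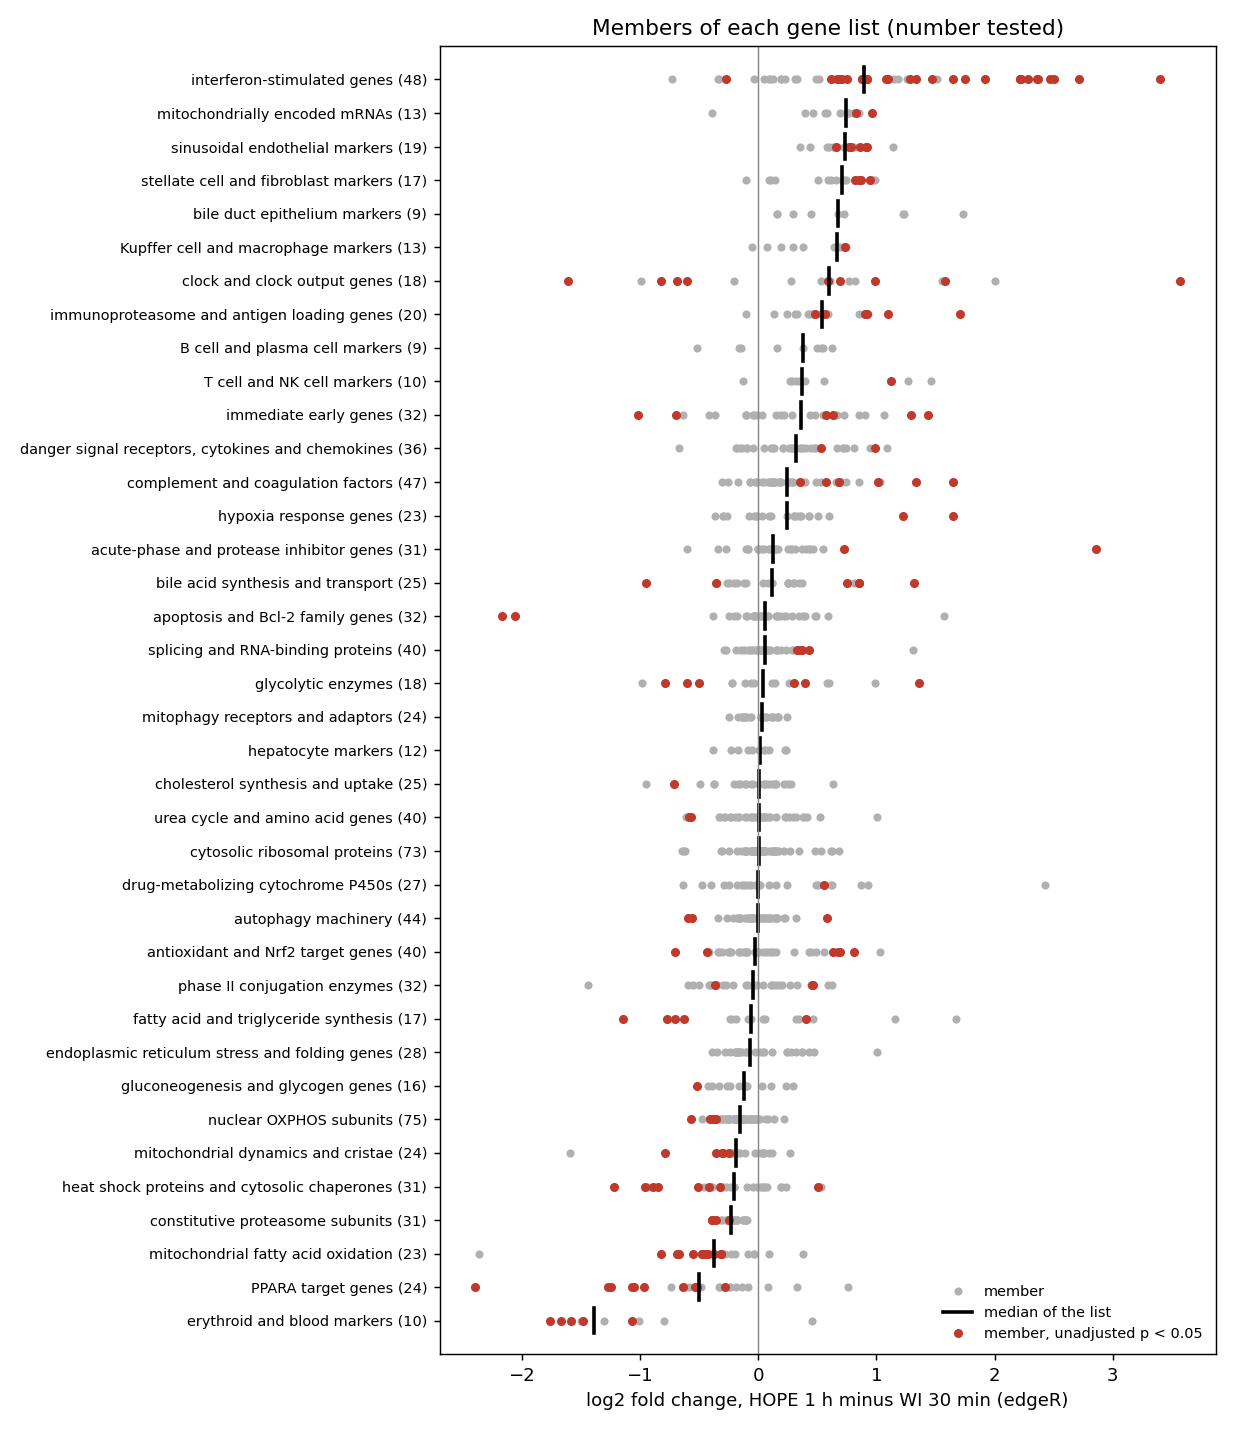
Log2 fold change of each member (HOPE 1 h minus WI 30 min, edgeR) for the lists with at least 9 tested genes, with the number tested in brackets, members with an unadjusted p under 0.05 in red and a black bar at the list's median. The interferon-stimulated list has the highest median (0.90) and the erythroid list the lowest (-1.39), while all 31 constitutive proteasome subunits lie left of 0.

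Other leading genes belonged to no interferon list. Ccnd1, cyclin D1 of the G1 phase, had 45.5, 59.5 and 50.99 CPM in HOPE 1 h livers, against 8.06, 12.6 and 11.6 CPM in WI 30 min livers (log2 fold change 2.28, SE 0.42, edgeR adjusted p = 0.177, DESeq2 adjusted p = 4.00e-05). All HOPE 1 h livers were well above any WI 30 min liver. Hprt1, a purine salvage enzyme often used as a reference gene, had the largest difference of the named genes. It had 19.7, 8.83 and 8.39 CPM in HOPE 1 h livers, against 0.338, 0.2499 and 0.242 CPM in WI 30 min livers (log2 fold change 5.43, SE 0.93, DESeq2 adjusted p = 1.31e-07). The WI 30 min livers were close to 0, as were the SCS 4 h livers with 0.2803, 0.542 and 0.785 CPM, whereas HMP 1 h livers ranged widely with 0.457, 5.81 and 10.5 CPM. The annotated position of Hprt1 is chrX:158197149-158228749 in Rnor_6.0. Enpp4, an ectonucleotidase, had 15.4, 15.4 and 18.99 CPM in HOPE 1 h and 9.02, 8.44 and 9.19 CPM in WI 30 min (log2 fold change 0.90, SE 0.15). Tmem86a, an enzyme of plasmalogen breakdown, had 16.9, 22.6 and 20.5 CPM in HOPE 1 h and 7.67, 5.31 and 9.79 CPM in WI 30 min (log2 fold change 1.39, SE 0.26). AABR07058464.1, with no gene name in the files, had 24.1, 18.8 and 27.1 CPM in HOPE 1 h and 9.76, 7.998 and 11.8 CPM in WI 30 min (log2 fold change 1.24, SE 0.22). LOC102556337 was named for its fold alone, and HOPE 1 h liver 2 carried it, with 0.798, 12.9 and 1.63 CPM in HOPE 1 h and 0.226, 0.625 and 0.242 CPM in WI 30 min.

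Rbm3, an RNA-binding protein induced by mild cold, had 31.6, 20.3 and 33.5 CPM in HOPE 1 h livers, against 9.98, 11.9 and 13.5 CPM in WI 30 min livers. The groups did not overlap (log2 fold change 1.27, SE 0.27, edgeR adjusted p = 0.239, DESeq2 adjusted p = 0.00501). The related cold-inducible gene Cirbp had 14.8, 12.3 and 17.1 CPM in HOPE 1 h and 7.95, 13.9 and 8.4 CPM in WI 30 min, where WI 30 min liver 2 overlapped the HOPE 1 h livers (log2 fold change 0.54, SE 0.29). Sgk1, a kinase whose transcript responds to glucocorticoid, osmotic and other stress, had 24.7, 41.7 and 53.5 CPM in HOPE 1 h and 16.2, 14.7 and 18.01 CPM in WI 30 min (log2 fold change 1.29, SE 0.32, DESeq2 adjusted p = 0.0271). Of 32 immediate early genes 21 had a positive log2 fold change (median 0.36), 4 were higher and 2 lower at an unadjusted p under 0.05, and Sgk1 was the 1 that DESeq2 called. Without HOPE 1 h liver 3 the median was 0.02, with 1 higher and 1 lower at that threshold, and 2 were higher without HOPE 1 h liver 2. Jun had 256, 253 and 257 CPM in HOPE 1 h and 161, 152 and 181 CPM in WI 30 min and did not overlap, while Fos had 23.4, 26.7 and 75.5 CPM in HOPE 1 h and 24.6, 8.12 and 13.7 CPM in WI 30 min, with HOPE 1 h liver 3 far above the rest. Gadd45a and Myc were the 2 lower members, with log2 fold changes of -1.02 (SE 0.37) and -0.69 (SE 0.31).

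Hamp encodes hepcidin, the liver hormone that closes the iron exporter ferroportin and is induced by iron, BMP6 and interleukin-6. It had 629.7, 484 and 730.3 CPM in HOPE 1 h livers, against 18.2, 49.2 and 186 CPM in WI 30 min livers. The HOPE 1 h livers were all above the WI 30 min livers, which themselves spread widely (log2 fold change 2.86, SE 0.81, edgeR adjusted p = 0.439, DESeq2 adjusted p = 0.07296). Serpina3c, a serine protease inhibitor of the acute-phase list, had 6377, 6002 and 6564 CPM in HOPE 1 h livers, against 4159, 3554 and 3736 CPM in WI 30 min livers, a smaller and tighter difference (log2 fold change 0.73, SE 0.18, DESeq2 adjusted p = 0.000655). Of 31 acute-phase and protease inhibitor genes 22 had positive and 9 negative log2 fold changes (median 0.13), 2 were higher and 0 lower at an unadjusted p under 0.05, and 9 were higher and 2 lower without overlap. Fgb, the fibrinogen beta chain, had 6357, 4559 and 4374 CPM in HOPE 1 h and 3362, 3285 and 3777 CPM in WI 30 min, and Orm1, the acute-phase protein orosomucoid, lay the other way with 332, 319 and 234 CPM in HOPE 1 h and 356, 391 and 597 CPM in WI 30 min.

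Markers of the sinusoid and its neighbours were higher in HOPE 1 h livers, but unevenly between livers. All 19 sinusoidal endothelial markers had a positive log2 fold change (median 0.73), 6 were higher at an unadjusted p under 0.05 and 3 did not overlap. Their summed level was 857, 1319 and 2101 CPM in HOPE 1 h livers, against 836, 864 and 890.2 CPM in WI 30 min livers. The highest was HOPE 1 h liver 3, and HOPE 1 h liver 1 lay within the WI 30 min range. With HOPE 1 h liver 3 left out, the median was 0.33 and 0 of the 19 had an unadjusted p under 0.05, and without HOPE 1 h liver 1 the median was 0.98 with 16. On leaving out WI 30 min liver 1, there were 4 and without WI 30 min liver 2 there were 3. In a fit of only the 6 livers there were 8 (median 0.72). Lyve1, a hyaluronan receptor of these cells, had 87.2, 139.8 and 233 CPM in HOPE 1 h and 87.8, 80.6 and 84.6 CPM in WI 30 min. Oit3 had 40.6, 66.3 and 99.8 CPM in HOPE 1 h and 40.4, 37.8 and 31.8 CPM in WI 30 min.

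Stellate cell and fibroblast markers were also mostly higher. Of 17 genes 16 were positive (median 0.71), 4 were higher at an unadjusted p under 0.05 and 7 did not overlap, and the summed level was 1451, 1197 and 1808 CPM in HOPE 1 h livers, against 1003, 1116 and 767 CPM in WI 30 min livers. Lrat, which stores retinol as esters in stellate cells, had 40.5, 35.9 and 55.7 CPM in HOPE 1 h and 20.1, 31.4 and 21.4 CPM in WI 30 min. Reln, the secreted protein reelin, had 107, 83.3 and 116 CPM in HOPE 1 h and 56.6, 65.1 and 51.7 CPM in WI 30 min. When HOPE 1 h liver 3 was left out, the median was 0.41 and 0 of the 17 reached that threshold, and without WI 30 min liver 1 or 3 the count was 2 or 1. Of 13 Kupffer cell and macrophage markers 12 were positive (median 0.67) and 1 was higher at that threshold, with sums of 711, 949.6 and 1468 CPM in HOPE 1 h livers, against 699, 643 and 803 CPM in WI 30 min livers. Without HOPE 1 h liver 3 the Kupffer median was 0.29, with 9 of 13 positive and 0 at that threshold. With HOPE 1 h liver 1 left out, it was 0.89 with 5. In a fit of only the 6 livers 7 of the 13 Kupffer cell and macrophage markers were higher at that threshold. Of the 17 stellate cell and fibroblast markers 9 were higher in that fit. Clec4f, found on Kupffer cells of rodents, had 156, 201 and 336 CPM in HOPE 1 h and 147, 120.2 and 166 CPM in WI 30 min and overlapped. Lymphocyte and neutrophil genes were few and mostly low. T cell and NK cell markers summed to 30.2, 35.8 and 67.6 CPM in HOPE 1 h. In WI 30 min they summed to 33.5, 32.9 and 37.03 CPM, so the groups overlapped. Cd8a, their member of lowest p, had 1.99, 2.07 and 1.68 CPM in HOPE 1 h and 1.01, 0.937 and 0.665 CPM in WI 30 min. B cell and plasma cell markers summed to 225, 273.9 and 234.7 CPM in HOPE 1 h. In WI 30 min these were 317.4, 259 and 224.4 CPM and overlapped as well. Summed neutrophil markers were 10.1, 9.18 and 21.1 CPM in HOPE 1 h livers, against 6.71, 7.31 and 9.18 CPM in WI 30 min livers. The part of these cell markers in the differences of other genes was not tested.

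Danger signal receptors, cytokines and chemokines were mostly low in both groups. Of 36 genes 28 were positive (median 0.32), 2 were higher and 0 lower at an unadjusted p under 0.05, and 6 did not overlap. These 2 were the leukocyte adhesion molecules Icam1, with 44.7, 36.1 and 36.5 CPM in HOPE 1 h and 31.9, 27.4 and 22 CPM in WI 30 min, and Vcam1, with 12.1, 13.2 and 20.2 CPM in HOPE 1 h and 7.33, 10.1 and 5.5 CPM in WI 30 min. Casp1, the inflammasome protease, had 3.59, 5.27 and 7.45 CPM in HOPE 1 h and 3.16, 3.25 and 3.505 CPM in WI 30 min and did not overlap either, at a log2 fold change of 0.72 (SE 0.35). On leaving out WI 30 min liver 3, 0 of the 36 reached that threshold, and without HOPE 1 h liver 3, 1 did, with medians of 0.42 and 0.19.

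**Figure D3:**
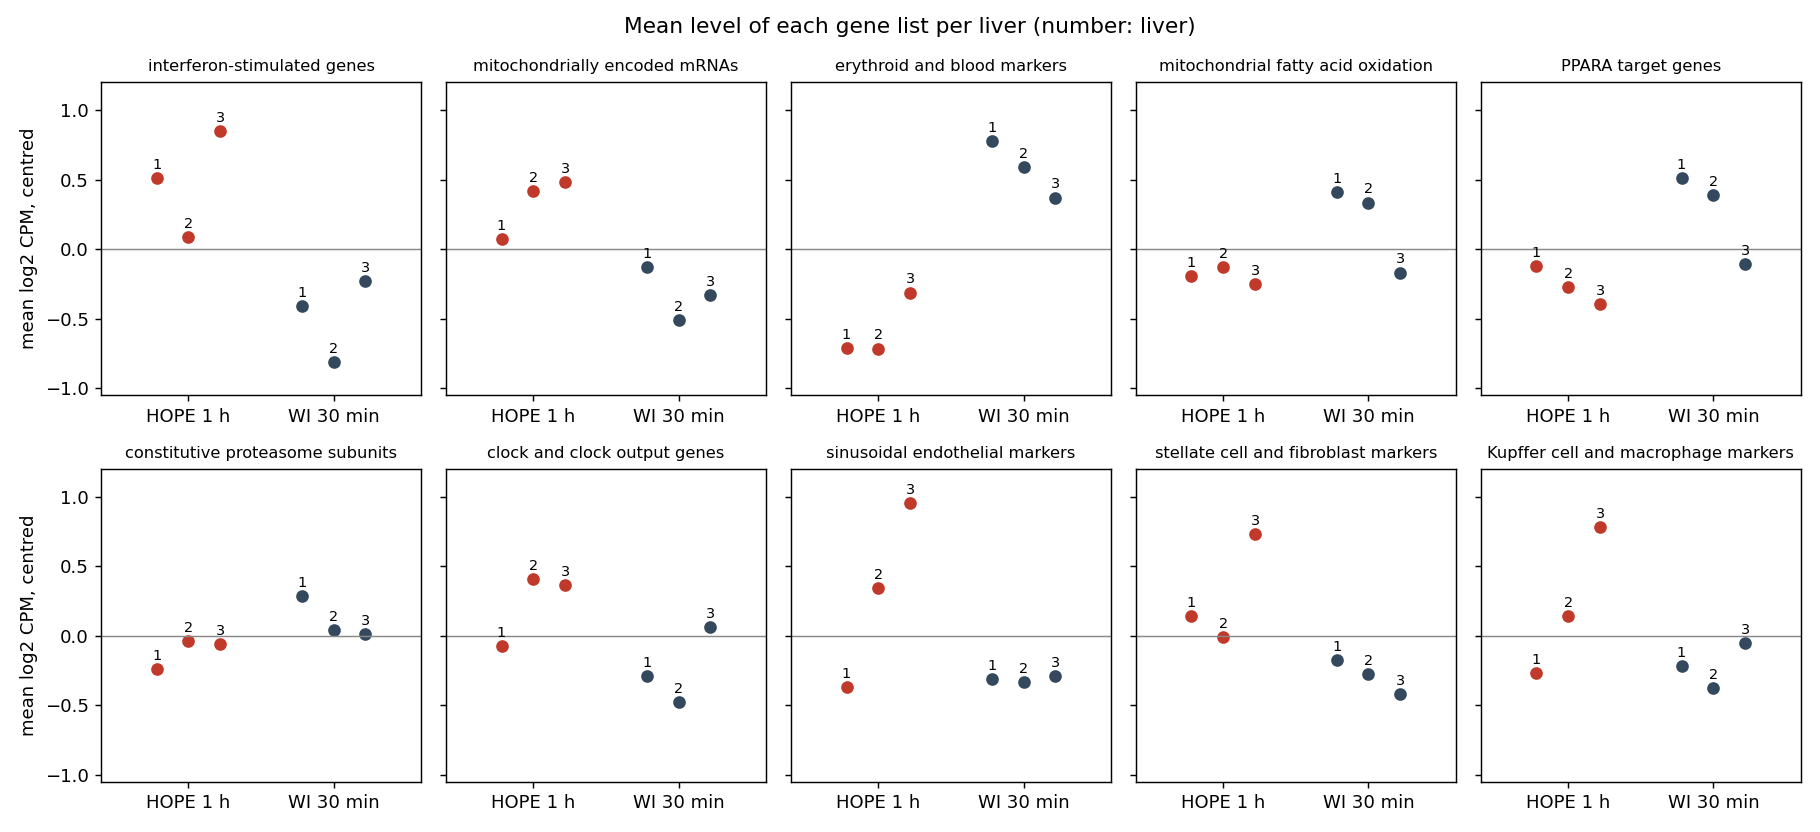
Mean centred log2 CPM over the tested members of 10 gene lists in each liver, HOPE 1 h left of WI 30 min, with the number of the liver above each point and 0 at the mean of the 6 livers. HOPE 1 h liver 3 lies above the other livers for the endothelial, stellate and Kupffer lists (0.958, 0.732 and 0.780), and WI 30 min liver 3 lies beside the HOPE 1 h livers for fatty acid oxidation and PPARA targets (-0.169 and -0.107).

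Mitochondrially encoded mRNAs and the nuclear genes for the same respiratory chain lay in opposite directions. Of the 13 mRNAs of the mitochondrial genome, which encode core subunits of complexes I, III, IV and V, 12 were higher (median log2 fold change 0.74), 2 at an unadjusted p under 0.05 and 9 without overlap. In a fit of only the 6 livers 10 reached that threshold (median 0.73). With all groups in the fit it was 0 without WI 30 min liver 1 or 2, and 1 without WI 30 min liver 3, HOPE 1 h liver 2 or HOPE 1 h liver 3. The fit of all groups includes HMP 1 h liver 1, where mitochondrial genes took 18.7% of counts. In the other HMP 1 h livers they took 4.79% and 5.27%. The part of HMP 1 h liver 1 in the difference between these fits was not tested. ND5, a proton-pumping subunit of complex I, had 2847, 3545 and 3223 CPM in HOPE 1 h livers, against 1862, 1708 and 1857 CPM in WI 30 min livers (log2 fold change 0.83, SE 0.35). ND6, the single mRNA on the light strand, had 601, 657 and 645 CPM in HOPE 1 h livers, against 292, 307 and 379.8 CPM in WI 30 min livers (log2 fold change 0.96, SE 0.36). Both groups were tight for these genes. COX1, the catalytic subunit of complex IV, had 23630, 31320 and 37560 CPM in HOPE 1 h and 18390, 15650 and 18910 CPM in WI 30 min and no overlap. All mitochondrial genes together took 6.56%, 9.197% and 10.2% of counts in HOPE 1 h livers, against 5.77%, 5.07% and 5.46% in WI 30 min livers. ATP8 was the exception, with 7.18, 7.47 and 8.71 CPM in HOPE 1 h and 21.6, 5.498 and 3.505 CPM in WI 30 min, and without WI 30 min liver 1 its log2 fold change was 0.79. It overlaps ATP6 on the genome, and its reads may be counted to either.

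Of 75 nuclear genes for subunits of oxidative phosphorylation (OXPHOS), 70 were lower, by little (median -0.15). Of them 6 were lower and 0 higher at an unadjusted p under 0.05, and 10 were lower and 1 higher without overlap. All 6 encode accessory subunits of complex I or its acyl carrier protein. Ndufa3 had 23.4, 28.4 and 26.9 CPM in HOPE 1 h livers, against 36.8, 44.8 and 34.99 CPM in WI 30 min livers (log2 fold change -0.57, SE 0.16), with every HOPE 1 h liver below every WI 30 min liver. Ndufb9 had 78.6, 94.8 and 94.2 CPM in HOPE 1 h and 133, 114 and 103 CPM in WI 30 min (log2 fold change -0.39, SE 0.14), also without overlap. When WI 30 min liver 1 was left out, 56 of the 75 were lower with a median of -0.09 and 1 at that threshold, without HOPE 1 h liver 1 there was also 1 (median -0.11), and without WI 30 min liver 3 there were 10 (median -0.25). Without WI 30 min liver 2 or HOPE 1 h liver 2 there were 4. Of 24 genes of mitochondrial fusion, fission and cristae 17 were lower (median -0.19), 5 at an unadjusted p under 0.05. These include Opa1, the inner membrane fusion GTPase, with 59.7, 64 and 51.8 CPM in HOPE 1 h and 72.8, 65.8 and 69.7 CPM in WI 30 min, and Samm50 of the outer membrane sorting machinery, with 41.6, 41.1 and 45.5 CPM in HOPE 1 h and 60.7, 49.1 and 47.6 CPM in WI 30 min.

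Genes for fatty acid oxidation were lower in HOPE 1 h livers. Of 23 genes of the mitochondrial pathway 21 were lower (median -0.38), 13 of them at an unadjusted p under 0.05 and 8 without overlap, and none was higher at either. Hadha, the alpha subunit of the trifunctional protein, had 444, 448 and 446 CPM in HOPE 1 h livers, against 633, 602 and 500.2 CPM in WI 30 min livers, with nearly equal HOPE 1 h livers, and was the 1 that DESeq2 called (log2 fold change -0.38, SE 0.12, DESeq2 adjusted p = 0.0415). Hadh, the next dehydrogenase of the spiral for short chains, had 270.5, 259 and 216 CPM in HOPE 1 h and 372, 374 and 282 CPM in WI 30 min (log2 fold change -0.46, SE 0.14). With WI 30 min liver 1 left out, the list's median was -0.26 with 4 genes lower at that threshold, and without WI 30 min liver 3 it was -0.48 with 17. With any of the other 4 livers left out there were 8 to 11. Acad11 had 229, 241 and 283 CPM in HOPE 1 h and 455, 481 and 275 CPM in WI 30 min, where WI 30 min liver 3 fell among the HOPE 1 h livers.

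Target genes of PPARA, the nuclear receptor that raises fat burning in fasting, followed. Of 24 genes 21 were lower (median -0.50), 10 at an unadjusted p under 0.05 and 6 without overlap. Ehhadh, the bifunctional enzyme of peroxisomal oxidation, had 491, 408 and 537 CPM in HOPE 1 h livers, against 1589, 1360 and 516 CPM in WI 30 min livers. WI 30 min livers 1 and 2 were far above every other liver, and WI 30 min liver 3 was within the HOPE 1 h range (log2 fold change -1.27, SE 0.36, DESeq2 adjusted p = 0.0418). Acot1, a thioesterase, had 4.67, 7.41 and 8.13 CPM in HOPE 1 h livers, against 73.8, 23.4 and 9.06 CPM in WI 30 min livers (log2 fold change -2.39, SE 0.81). Vnn1 had 95.8, 80.2 and 98.99 CPM in HOPE 1 h and 245, 213 and 118 CPM in WI 30 min. Pdk4, the kinase that switches off pyruvate dehydrogenase, had 73.9, 68.8 and 27.5 CPM in HOPE 1 h and 121, 204 and 76.9 CPM in WI 30 min. The list scored -0.123, -0.276 and -0.394 in HOPE 1 h livers and 0.51, 0.39 and -0.107 in WI 30 min livers. On leaving out WI 30 min liver 3, the median was -0.63 with 15 genes lower at that threshold, and without WI 30 min liver 1 or 2 it was -0.40 with 4. When HOPE 1 h liver 2 or 3 was left out, there were 5.

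Glycolytic genes were mixed, with 9 of 18 higher and 9 lower, 3 each at an unadjusted p under 0.05. Ldha, which turns pyruvate into lactate, had 1055, 1047 and 977 CPM in HOPE 1 h livers, against 2218, 1773 and 1328 CPM in WI 30 min livers. It did not overlap (log2 fold change -0.79, SE 0.18, edgeR adjusted p = 0.3302, DESeq2 adjusted p = 0.00369). Pgk1 had 104, 122 and 122 CPM in HOPE 1 h and 216, 177 and 137 CPM in WI 30 min (log2 fold change -0.60, SE 0.16, DESeq2 adjusted p = 0.0451). Gapdh had 363, 313 and 288 CPM in HOPE 1 h and 571, 411 and 384 CPM in WI 30 min (log2 fold change -0.50, SE 0.18). Gpi, the isomerase at the second step, lay the other way with 117, 129.6 and 132 CPM in HOPE 1 h and 107, 102 and 96.2 CPM in WI 30 min (log2 fold change 0.31, SE 0.10). Of 23 hypoxia response genes 15 were higher and 8 lower (median 0.24), 2 higher at that threshold. Adm, 1 of these, which encodes a vasodilator peptide, had 2.96, 4.03 and 4.04 CPM in HOPE 1 h and 1.18, 2.62 and 0.906 CPM in WI 30 min. ACGTG, the core of the hypoxia response element, is in 12 of 19 promoters of that list (63.2%) and in 19.3% of all promoters, on either strand, and it lies within the E-box CACGTG.

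Among genes that were lower, Fkbp4 had the lowest p. It encodes a co-chaperone of HSP90 in steroid receptor complexes and had 81.9, 114 and 107 CPM in HOPE 1 h livers, against 221, 165 and 159 CPM in WI 30 min livers (log2 fold change -0.84, SE 0.16, edgeR adjusted p = 0.194, DESeq2 adjusted p = 0.000427). Nup62, a central protein of the nuclear pore, had 60.6, 64.3 and 51.8 CPM in HOPE 1 h livers, against 133, 106 and 94.6 CPM in WI 30 min livers (log2 fold change -0.92, SE 0.19). The groups did not overlap for either gene. Fzd4, a Wnt receptor, had 66.3, 63.9 and 59.1 CPM in HOPE 1 h and 108, 143 and 102 CPM in WI 30 min. Adra1b, the adrenergic receptor that drives glycogen breakdown in rat liver, had 23.6, 27.1 and 24.6 CPM in HOPE 1 h and 39.6, 37.9 and 43.03 CPM in WI 30 min (log2 fold change -0.68, SE 0.16). Abcb10, a transporter of the inner mitochondrial membrane, had 17.6, 19.5 and 20.3 CPM in HOPE 1 h and 31.02, 26.8 and 31.1 CPM in WI 30 min. Bola1, a mitochondrial protein of iron-sulfur cluster supply, had 19.9, 25.2 and 23.6 CPM in HOPE 1 h and 36.7, 31.9 and 32.1 CPM in WI 30 min. The 12 with the lowest p also held Gtse1, LOC691083, Crybg2, Cadm1 and Ldha, with log2 fold changes of -2.04, -0.76, -0.70, -0.60 and -0.79. DESeq2 called all 12.

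Chaperone genes beside Fkbp4 were lower as well. Of 31 heat shock proteins and cytosolic chaperones 21 were lower (median -0.20), with 7 lower and 1 higher at an unadjusted p under 0.05 and 10 lower and 1 higher without overlap. Hsp90ab1, the constitutive HSP90, had 611, 858 and 847 CPM in HOPE 1 h and 1254, 1052 and 986 CPM in WI 30 min. The small heat shock protein gene Hspb1 had 5.36, 6.46 and 9.91 CPM in HOPE 1 h and 25.4, 13.1 and 12.1 CPM in WI 30 min. Hspe1, the mitochondrial co-chaperonin, had 20.7, 30.1 and 29.9 CPM in HOPE 1 h and 63.1, 50.2 and 36.2 CPM in WI 30 min. Dnajb4 was the 1 that was higher, with 20.2, 18.6 and 21.9 CPM in HOPE 1 h and 14.3, 12.9 and 15.5 CPM in WI 30 min. HOPE 1 h liver 1 was the lowest of its group for Fkbp4, Hsp90ab1, Hspb1 and Hspe1, and without it the list's median was -0.09 with 1 gene lower at that threshold. Without WI 30 min liver 1 there were 2. The heat shock motif GAANNTTC is in 13 of 26 promoters of this list (50%) and in 8.59% of all promoters.

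All 31 constitutive proteasome subunits were lower, by small amounts (median -0.23). Of them 4 were lower at an unadjusted p under 0.05 and 10 did not overlap. Psmd1, a scaffold of the regulatory particle, had 110.4, 115 and 107 CPM in HOPE 1 h and 158, 136 and 142 CPM in WI 30 min (log2 fold change -0.39, SE 0.15). Psmd2 had 133, 159.5 and 158 CPM in HOPE 1 h and 229, 185 and 176 CPM in WI 30 min (log2 fold change -0.39, SE 0.15). WI 30 min liver 1 had the highest score of the list (0.288), and without it 30 of 31 were lower with a median of -0.15 and 0 at that threshold. With HOPE 1 h liver 1 left out, there was 1, and without HOPE 1 h liver 3 there were 2.

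Red cell transcripts were the group with the lowest median. Of 10 erythroid and blood markers 9 were lower (median -1.39), 5 at an unadjusted p under 0.05 and 8 without overlap. On leaving out WI 30 min liver 1, HOPE 1 h liver 1 or HOPE 1 h liver 2, the count at that threshold was 2, and without HOPE 1 h liver 3 it was 3, with medians of -1.51 to -1.24. In a fit of only the 6 livers it was 8 (median -1.40). Hbb, the beta chain of haemoglobin, had 389, 376 and 572 CPM in HOPE 1 h livers, against 1639, 1396 and 1198 CPM in WI 30 min livers, so the groups stood far apart (log2 fold change -1.66, SE 0.65, edgeR adjusted p = 0.559). Hba-a2, an alpha chain, had 266, 190.5 and 274 CPM in HOPE 1 h and 737, 765 and 538 CPM in WI 30 min. Alas2, the erythroid enzyme of haem synthesis, had 8.603, 8.95 and 11.9 CPM in HOPE 1 h and 39.1, 24.5 and 24.7 CPM in WI 30 min. Ahsp, the chaperone of free alpha chains, had 0.627, 0.593 and 0.839 CPM in HOPE 1 h and 3.38, 1.81 and 1.81 CPM in WI 30 min. Slc4a1, the anion exchanger of the red cell membrane, had 6.096, 5.39 and 5.46 CPM in HOPE 1 h and 13.1, 11.6 and 10.8 CPM in WI 30 min. The platelet gene Pf4 lay the other way with 2.28, 3.67 and 4.88 CPM in HOPE 1 h and 2.48, 2.31 and 3.08 CPM in WI 30 min. Globin copies are near-identical, so reads may be split between them. Alox15, a lipoxygenase of reticulocytes in several mammals, had 13.9, 13.04 and 16.8 CPM in HOPE 1 h and 57.9, 46.9 and 36.1 CPM in WI 30 min. Cdc25b, a phosphatase of mitotic entry, had 4.73, 4.27 and 6.35 CPM in HOPE 1 h and 15.9, 13.4 and 11.1 CPM in WI 30 min. The summed markers were 1546, 1237 and 1884 CPM in HOPE 1 h livers, against 4694, 4473 and 3476 CPM in WI 30 min livers. Hbb was also below the WI 30 min livers in the HMP 1 h livers, with 762, 74.96 and 467 CPM, and in the SCS 4 h livers, which had no machine perfusion, with 152, 607 and 505 CPM.

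**Figure D4:**
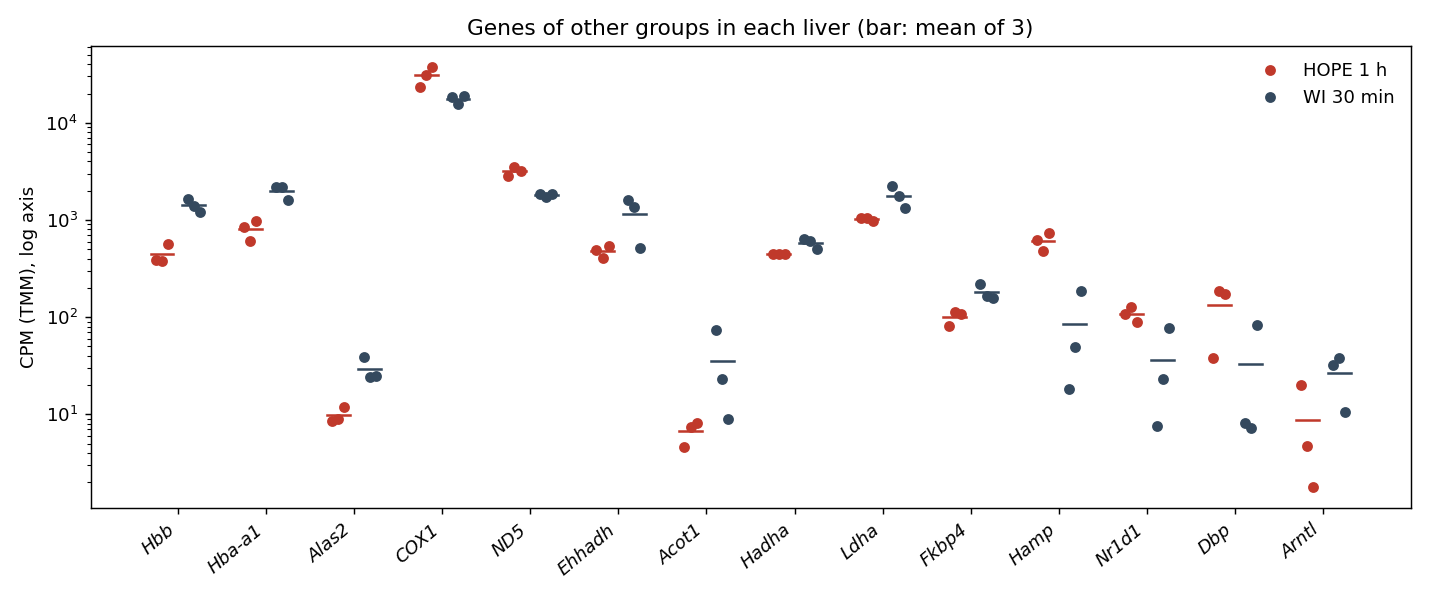
CPM after TMM scaling on a log axis for 14 genes of the erythroid, mitochondrial, fatty acid, glycolytic, chaperone, iron and clock groups, with 1 point per liver, HOPE 1 h left of WI 30 min, and a bar at the mean of 3 livers. Hbb lies between 376 and 572 CPM in HOPE 1 h livers, below all WI 30 min livers, while Dbp and Arntl overlap because HOPE 1 h liver 1 and WI 30 min liver 3 lie away from their groups.

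Clock genes did not follow the groups cleanly. Of 18 clock and clock output genes 12 were positive and 6 negative (median 0.60), 5 were higher and 4 lower at an unadjusted p under 0.05, but 1 was higher and 2 lower without overlap. Clock, a DNA-binding activator of the loop, had 56.2, 42.2 and 32.05 CPM in HOPE 1 h livers, against 63.96, 69.2 and 64.5 CPM in WI 30 min livers (log2 fold change -0.60, SE 0.17). Its partner Arntl had 19.9, 4.74 and 1.78 CPM in HOPE 1 h livers, against 32.2, 37.9 and 10.6 CPM in WI 30 min livers. The repressor Nr1d1 had 107, 128 and 89.8 CPM in HOPE 1 h livers, against 7.67, 22.9 and 77.8 CPM in WI 30 min livers, and Dbp, an output gene, had 37.8, 185 and 174 CPM in HOPE 1 h livers, against 8.12, 7.18 and 84.1 CPM in WI 30 min livers. HOPE 1 h liver 1 and WI 30 min liver 3 had intermediate values in Arntl and Dbp, with Dbp higher in WI 30 min liver 3 than in HOPE 1 h liver 1. These counts moved with nearly every liver. When WI 30 min liver 3 was left out, 9 of the 18 were higher and 3 lower at that threshold, and without HOPE 1 h liver 1, 7 and 5. Without WI 30 min liver 2 they were 0 and 1, and without WI 30 min liver 1, HOPE 1 h liver 2 or HOPE 1 h liver 3 they were 1 and 1. In a fit of only the 6 livers, with 17 of these genes tested, they were 3 and 2. The E-box CACGTG, which CLOCK and ARNTL bind, is in 3 of 15 promoters of the list (20%) and in 6.42% of all promoters. No source used here gives the time of day at which each liver was taken, and its part in these differences was not tested.

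Some of the genes that the study follows concern mitophagy, apoptosis and oxidative stress, and those named here had unadjusted p-values of 0.05 or more. Pink1, the kinase that marks damaged mitochondria, had 195, 286 and 270 CPM in HOPE 1 h livers, against 254, 262 and 266 CPM in WI 30 min livers (log2 fold change -0.06, SE 0.15), and its sign changed without HOPE 1 h liver 1. Sqstm1, which encodes the autophagy adaptor P62, had 438, 371 and 423 CPM in HOPE 1 h and 348, 379 and 375 CPM in WI 30 min (log2 fold change 0.16, SE 0.15). Map1lc3b, which encodes LC3B, had 146, 207 and 182 CPM in HOPE 1 h and 163, 160.2 and 163 CPM in WI 30 min (log2 fold change 0.14, SE 0.20). Its relative Map1lc3a had 12.2, 18.5 and 24.9 CPM in HOPE 1 h and 26.9, 20.1 and 23.3 CPM in WI 30 min (log2 fold change -0.34, SE 0.27). All 4 overlapped between the groups. Of 24 mitophagy genes 14 were higher and 10 lower (median 0.03), with 0 at an unadjusted p under 0.05 in either direction and 3 lower without overlap. Of 44 genes of the autophagy machinery 21 were higher and 23 lower, with 1 and 2 at that threshold. The higher one was Wipi1, which marks the growing autophagosome membrane, with 6.84, 11.7 and 9.44 CPM in HOPE 1 h and 6.49, 5.56 and 6.59 CPM in WI 30 min. The lower ones did not overlap either. Tfe3, a transcription factor of lysosomal genes, had 12.5, 11.9 and 10.5 CPM in HOPE 1 h and 16.9, 14.6 and 19.8 CPM in WI 30 min. Stx17, the SNARE that fuses autophagosomes with lysosomes, had 9.002, 8.24 and 7.87 CPM in HOPE 1 h and 11.7, 13.9 and 12.3 CPM in WI 30 min.

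Bax, the pore-forming protein of the outer mitochondrial membrane, had 7.92, 9.07 and 14.9 CPM in HOPE 1 h and 9.14, 10.8 and 8.703 CPM in WI 30 min. Its antagonist Bcl2 had 0.5697, 0.533 and 1.05 CPM in HOPE 1 h and 0.282, 0 and 0.423 CPM in WI 30 min, low in all livers but without overlap (log2 fold change 1.57, SE 0.73). With HOPE 1 h liver 3 left out, the log2 fold change of Bax was -0.17, so its sign was not stable. Of 32 genes of apoptosis and the Bcl-2 family 19 were higher and 13 lower (median 0.06), 0 higher and 2 lower at an unadjusted p under 0.05. The 2 were Casp6, with 0.969, 0.652 and 1.21 CPM in HOPE 1 h and 5.75, 1.25 and 5.802 CPM in WI 30 min, and the cell cycle inhibitor Cdkn1a, with 10.5, 2.79 and 4.67 CPM in HOPE 1 h and 27.1, 44.2 and 3.57 CPM in WI 30 min. Sod1, the cytosolic superoxide dismutase, had 337, 297 and 359 CPM in HOPE 1 h and 445, 550.3 and 328 CPM in WI 30 min. Sod2, its mitochondrial counterpart, had 93.95, 107 and 109 CPM in HOPE 1 h and 133, 117 and 119 CPM in WI 30 min and did not overlap (log2 fold change -0.25, SE 0.12). Cytochrome c (Cycs), which leaves mitochondria in apoptosis, had 89.2, 91.5 and 81.9 CPM in HOPE 1 h and 117, 91.97 and 94.4 CPM in WI 30 min and did not overlap (log2 fold change -0.21, SE 0.14). Hmgb1, a nuclear protein that acts as a danger signal outside cells, had 7.81, 6.87 and 5.82 CPM in HOPE 1 h and 6.04, 3.999 and 6.71 CPM in WI 30 min (log2 fold change 0.29, SE 0.21). The genes for the serum markers of liver injury, Gpt and Got1, had log2 fold changes of -0.32 (SE 0.29) and 0.32 (SE 0.34). Of 40 antioxidant and Nrf2 target genes 16 were higher and 24 lower (median -0.02), 4 and 2 at that threshold. Ephx1, the microsomal epoxide hydrolase, was the 1 that DESeq2 called, with 638, 679.7 and 606 CPM in HOPE 1 h and 411, 435 and 345 CPM in WI 30 min (log2 fold change 0.69, SE 0.18, DESeq2 adjusted p = 0.0491). Mt1, a metallothionein that binds zinc and copper, had 152, 132 and 175 CPM in HOPE 1 h and 90.3, 94.3 and 102 CPM in WI 30 min and did not overlap.

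The same fit set the HOPE 1 h livers against the other preserved livers, to show how the same genes stood there. These comparisons share the HOPE 1 h livers. EdgeR called 0 genes (0%) against SCS 4 h, where 553 genes (4.04%) were higher and 936 (6.84%) lower in HOPE 1 h at an unadjusted p under 0.05, and 0 genes (0%) against HMP 1 h, where 542 (3.96%) were higher and 482 (3.52%) lower. HMP 1 h liver 1 stood apart from its group, with a chi-square per degree of freedom over genes of 197 and 181 against the other HMP 1 h livers, which differed from each other by 34.3, so values against HMP 1 h are given without it where they move. In the fit without HMP 1 h liver 1, 791 genes (5.7%) were higher and 850 (6.12%) lower in HOPE 1 h at an unadjusted p under 0.05.

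Of the 48 interferon-stimulated genes 43 had a positive log2 fold change over SCS 4 h (median 0.58), 21 at an unadjusted p under 0.05 with 2 lower. Against HMP 1 h livers 25 of 48 were higher (median 0.01) with 0 higher and 2 lower at that threshold, and without HMP 1 h liver 1 the median was -0.02 with 0 in either direction. For Irf7 the log2 fold change was 1.39 (SE 0.41) over SCS 4 h and 0.10 (SE 0.40) over HMP 1 h, where livers had 49.1, 22.9 and 49.3 CPM. For Slfn4 it was 1.90 (SE 0.40) over SCS 4 h and 0.51 (SE 0.39) over HMP 1 h. Of the 20 immunoproteasome and antigen loading genes 14 were positive over SCS 4 h (median 0.14), with 1 higher and 0 lower at that threshold. Only 2 were positive against HMP 1 h (median -0.45), with 1 higher and 5 lower. Without HMP 1 h liver 1 there were 8 positive (median -0.19), with 1 higher and 3 lower.

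Nuclear OXPHOS genes lay below the SCS 4 h livers too. All 75 had a negative log2 fold change (median -0.45), 58 of them at an unadjusted p under 0.05, against a background of 6.84%. Against HMP 1 h livers 50 were lower (median -0.07) and 3 were lower at that threshold, and without HMP 1 h liver 1 these were 65 of 75 (median -0.16) and 7. Those 7 are 9.33% of the list, where 6.12% of all genes were lower. Ndufa3 had 23.4, 28.4 and 26.9 CPM in HOPE 1 h livers, against 43.6, 55.9 and 48.8 CPM in SCS 4 h livers, with a log2 fold change of -0.91 (SE 0.16, unadjusted p = 9.99e-05). All 31 constitutive proteasome subunits were also lower than in SCS 4 h livers (median -0.45, 23 at that threshold), while 29 of 31 were higher than in HMP 1 h livers (median 0.12, 3 at that threshold), which without HMP 1 h liver 1 became 18 of 31 (median 0.02, 1 at that threshold). Fatty acid oxidation genes were lower than in SCS 4 h livers for 22 of 23 (median -0.50, 15 at that threshold) and mixed against HMP 1 h livers (median 0.07), with 2 higher and 1 lower at that threshold, and 4 and 2 without HMP 1 h liver 1 (median 0.04).

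For mitochondrial mRNAs the comparison with HMP 1 h rested on HMP 1 h liver 1. With it all 13 were lower in HOPE 1 h (median -0.17) with 0 at an unadjusted p under 0.05. Without it all 13 were higher (median 0.65), 11 at that threshold, where 5.7% of all genes were higher. Over SCS 4 h all 13 were higher (median 0.70), 2 at that threshold. ND5 had 2847, 3545 and 3223 CPM in HOPE 1 h livers, 5984, 2193 and 2088 CPM in HMP 1 h livers and 1357, 1371 and 2059 CPM in SCS 4 h livers. Chaperone genes were higher than in HMP 1 h livers, with 26 of 31 positive (median 0.25) and 10 at that threshold. Without HMP 1 h liver 1 there were 6 (median 0.17). Against SCS 4 h livers 8 of 31 were positive (median -0.22), with 10 lower and 1 higher at that threshold. Ahsa1, the activator of the HSP90 ATPase, had a log2 fold change of 0.56 (SE 0.17) over HMP 1 h. Of 32 immediate early genes 25 were positive over SCS 4 h (median 0.30), with 3 higher and 3 lower at that threshold. Only 4 were positive against HMP 1 h (median -0.31), with 1 higher and 6 lower. Without HMP 1 h liver 1 there were 14 positive (median -0.08), with 1 higher and 7 lower.

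**Figure D5:**
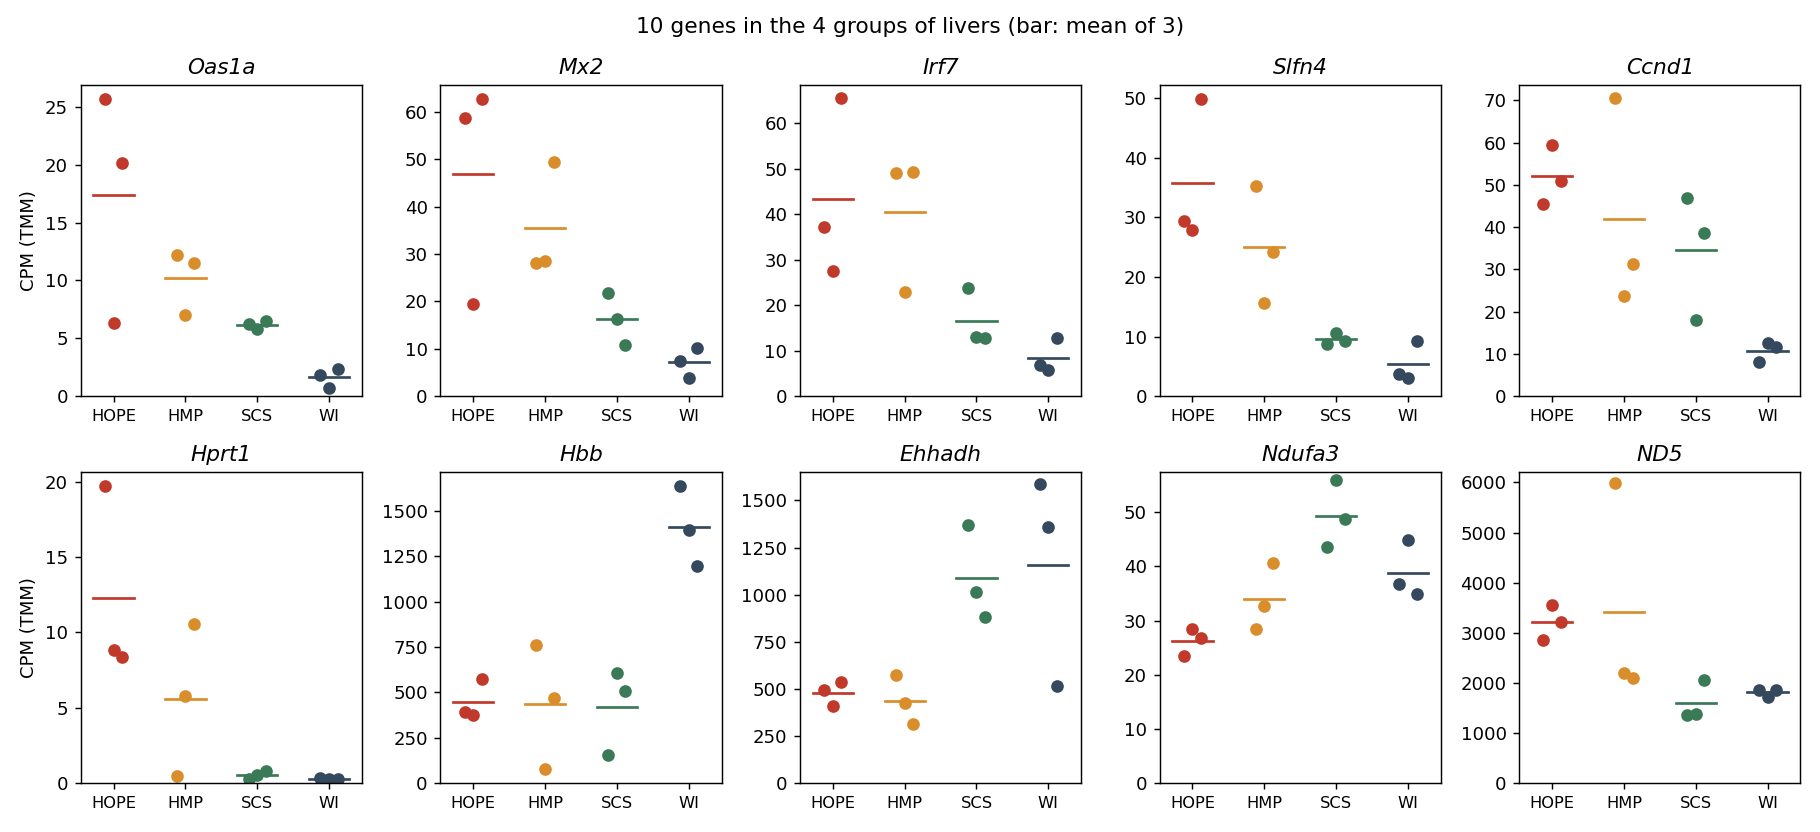
CPM after TMM scaling on linear axes from 0 for 10 genes in HOPE 1 h, HMP 1 h, SCS 4 h and WI 30 min livers, with 1 point per liver and a bar at the mean of 3. Irf7 and Mx2 have their highest means in the HOPE 1 h and HMP 1 h groups, though single livers overlap with SCS 4 h. Hbb is highest in the WI 30 min livers, and HMP 1 h liver 1 is far above the other livers for ND5.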

How the data were processed

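RNA of liver tissue from 12 male rats was sequenced as mRNA libraries (SMARTER kit), 3 livers per group. The authors aligned reads to Rnor_6.0 with Hisat2 and assembled transcripts with StringTie, and the deposited table holds read counts per gene, whole numbers without normalization, beside 12 FPKM columns and 30 columns of the authors' own comparisons (fold changes and p-values), neither of which was used. No source used here gives the counting tool or its use of strand, so reads of a gene and of an overlapping antisense gene cannot be told apart.

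Genes were filtered with filterByExpr, scaled by TMM and tested with edgeR 4.0.16 (quasi-likelihood F test, R 4.3.3) in a model of 12 livers with a mean per group, with Benjamini-Hochberg adjustment over 13687 genes and a threshold of 0.05. DESeq2 1.42.0, which left 823 genes without an adjusted p, was an alternative, with RLE scaling, total counts only, no filter, 6 livers only, a replicate block and livers left out. No replicate pair agreed within sampling noise (chi-square per degree of freedom of at least 26.7). CPM is on the TMM scale and not per length, so levels are not compared between genes. Scores are means over a list of log2 CPM (prior count 2) centred on the 6 livers. The fit was tested on simulated data with known changes and the same spread for every gene. That is simpler than in these livers, so the test does not show how many true changes were missed here.

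Members and lists were chosen with earlier results of these data known. Named genes were the 12 of lowest p and 10 of largest fold in each direction among genes above 5 CPM on average in either group whose livers did not overlap, and, with no such limit, up to 4 of lowest p per list, the genes the study follows, and 10 of lowest DESeq2 p. ATP8, Arntl, Dbp, Ddx58, Hadha, Hspb1, Ifi35, Ifi44l, Ifih1, Irf9, Isg15, Jun, Myc, Nr1d1, Opa1, Orm1, Pdk4, Pf4 and Rsad2 were named after their values were seen. Promoters came from RefSeq, GRCr8. A few genes that these rules name are not reported here.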

Additional observations from a re-analysis of the deposited data

How the results depend on the processing

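EdgeR called 0 genes with TMM or with RLE scaling, 8 with no filter on low counts and 2 with only the 6 livers compared. DESeq2 called 97, and 1173 genes had an unadjusted p under 0.05. With 1 of the 12 livers left out the number called was 0 to 4, and 7 genes were called in any of these settings. Slfn4 and C6 were called without WI 30 min liver 3, Hprt1 without HMP 1 h liver 1, and RT1-S3, Lgals3bp, Mx2 and Oas1a without HOPE 1 h liver 2. Without HOPE 1 h liver 3 and WI 30 min liver 3 together, a setting chosen after seeing the data, the number was 0. Genes higher without overlap numbered 1790 to 2436 with 1 of the 6 livers left out, 3418 without both livers numbered 3 and 792 with total counts only. Genes lower without overlap numbered 1432 to 2110, 2816 and 1609 in these settings, where fewer livers separate more often by construction.

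The replicate numbers of the labels pair nothing that the sources name, and the deviations of same-numbered HOPE 1 h and WI 30 min livers correlated at 0.025, -0.019 and -0.014, so not every liver correlated best with its own number. With a replicate block 1 gene was called, Oas1a, at an adjusted p of 0.0397. Signs changed in 6 of the genes named here, none of them called, and the cause was not tested. With 1 liver left out Bax ranged between -0.166 and 0.332, Got1 between -0.0679 and 0.508, Pink1 between -0.165 and 0.0905, Ifih1 between -0.0510 and 0.304, Rsad2 between -0.431 and 0.427 and ATP8 between -0.802 and 0.787. Without both livers numbered 3, Bax was at -0.227 and Rsad2 at -0.533, and Rsad2 was at -0.0169 with the replicate block. Of 461 list medians recomputed, 438 moved by less than the spread between replicates and 23 by more. Leaving out 1 of 3 livers can seldom move a median that far, so this count is no measure of stability. With 1 liver left out the medians of the glycolytic (-0.03 to 0.12), mitophagy (-0.06 to 0.06), autophagy (-0.04 to 0.04), antioxidant (-0.08 to 0.04) and apoptosis (-0.0026 to 0.08) lists lay on both sides of 0. Genes at about 1 CPM or less, such as Bcl2 and Ahsp, rest on few reads and carry wide errors.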

Other observations

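Gene groups of hepatocyte function that the comparisons above leave out were mixed between HOPE 1 h and WI 30 min livers. Of 47 complement and coagulation factors 39 were higher (median log2 fold change 0.24), 6 at an unadjusted edgeR p under 0.05 and 0 lower at that threshold. C6, a subunit of the membrane attack complex, had 139.6, 114 and 161 CPM in HOPE 1 h and 47.4, 45.99 and 111 CPM in WI 30 min, and without WI 30 min liver 3 edgeR called it at an adjusted p of 0.0367. Klkb1, which encodes plasma prekallikrein, had 332, 298 and 246 CPM in HOPE 1 h and 168, 234 and 187 CPM in WI 30 min. Vwf, made by endothelium, had 17.8, 16.5 and 33.5 CPM in HOPE 1 h and 7.05, 9.69 and 10.2 CPM in WI 30 min. Of 25 genes of bile acid synthesis and transport 16 were higher and 9 lower, 4 and 2 at that threshold. Slco1a4, an organic anion uptake transporter, had 396, 421 and 279 CPM in HOPE 1 h and 93.7, 111 and 235 CPM in WI 30 min and was called by DESeq2 (adjusted p = 0.0453). Abcg5 and Abcg8 together form the canalicular sterol exporter. Abcg5 had 54.8, 50.6 and 62.1 CPM in HOPE 1 h and 30.1, 30.1 and 39.04 CPM in WI 30 min. For Abcg8 the log2 fold change was 0.85 (SE 0.26), and neither overlapped. Cyp8b1, which sets the cholic acid share of bile acids, had 1068, 973 and 926 CPM in HOPE 1 h and 2343, 2432 and 954 CPM in WI 30 min, where WI 30 min liver 3 lay within the HOPE 1 h range.

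The synthesis of fat gave scattered members. Agpat2, of triglyceride synthesis, had 67, 75.3 and 67.6 CPM in HOPE 1 h and 118, 120 and 85.4 CPM in WI 30 min (log2 fold change -0.62, SE 0.19). Gpam, which adds the first acyl chain, had 71.9, 57.8 and 28.8 CPM in HOPE 1 h and 134, 104 and 111 CPM in WI 30 min. Cytosolic ribosomal proteins did not lean, with 38 of 73 higher and 35 lower, 0 at an unadjusted p under 0.05 in either direction. Of 40 splicing and RNA-binding proteins 28 were higher, 4 at that threshold, among them Hnrnph1 with 52.2, 50.4 and 52.5 CPM in HOPE 1 h and 39.9, 39.7 and 40.5 CPM in WI 30 min and Ddx39b with 68.2, 63.9 and 59.3 CPM in HOPE 1 h and 46.2, 50.98 and 44.7 CPM in WI 30 min. Of 27 drug-metabolizing cytochrome P450 genes 13 were higher and 14 lower, with Cyp3a23/3a1 the 1 higher at that threshold, at 2407, 1778 and 2464 CPM in HOPE 1 h and 1287, 1827 and 1413 CPM in WI 30 min. Of 40 urea cycle and amino acid genes 20 were higher and 20 lower, and Agxt, which clears glyoxylate, was 1 of 2 lower at that threshold with 156, 138 and 116 CPM in HOPE 1 h and 216, 231 and 157 CPM in WI 30 min. Of 28 genes of endoplasmic reticulum stress and folding 13 were higher and 15 lower, with 0 at that threshold. All 9 bile duct markers were higher (median 0.68), with 0 at that threshold and 0 without overlap, and without HOPE 1 h liver 3 the median was 0.0051 with 5 of 9 higher.

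A few single genes had large folds outside any list. Tnks2, a poly-ADP-ribose polymerase, had 1.196, 1.896 and 3.31 CPM in HOPE 1 h and 5.81, 19.4 and 8.76 CPM in WI 30 min (log2 fold change -2.40, SE 0.70, DESeq2 adjusted p = 0.0393). This Tnks2 entry is annotated on an unplaced scaffold, and its SCS 4 h livers had 0.785, 3.67 and 8.57 CPM. Gtse1, a microtubule protein of dividing cells, had 1.37, 1.19 and 1.15 CPM in HOPE 1 h and 6.99, 2.25 and 6.104 CPM in WI 30 min (log2 fold change -2.04, SE 0.43, DESeq2 adjusted p = 0.00397). Exoc7 of the exocyst had 3.76, 0.593 and 1.47 CPM in HOPE 1 h and 4.06, 7.75 and 4.11 CPM in WI 30 min. LOC103694857, on an unplaced scaffold, had 14.7, 10.1 and 17.99 CPM in HOPE 1 h and 50.5, 47.4 and 34.6 CPM in WI 30 min. It had 4.82, 26.1 and 12.6 CPM in SCS 4 h and 21.65, 2.87 and 13.8 CPM in HMP 1 h. Within each group its livers ranked as they did for Hbb, and its relation to the red cell transcripts was not tested.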
